A study of Mus musculus with 42 samples.

Results

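The genes of the AP-1 transcription factor and of the immediate early response described here are Fos, Fosb, Fosl1, Fosl2, Jun, Junb, Jund, Egr1, Atf3 and Ier3. These 10 genes were taken by name, and each had a row in all 12 tables of the series, in which 12190 genes had a row in every table and 19232 had a row in at least 1. All 10 passed the filter on low values in every table.

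RNA-seq was performed on 42 mouse samples, of which 24 were cells sorted from colon and 18 were colonic organoids. Goblet cells were sorted as Muc2-mCherry+ cells and stromal cells as Gli1-CreERT2-driven tdTomato+ cells, from the proximal and the distal colon, with 2 libraries per genotype and segment. All sorted cells came from mice that carry Gli1-CreERT2 and received tamoxifen on 5 consecutive days, and were collected at day 30 from males and females of 2 to 4 months. GWTM2 (goblet cells) and GWTT (stromal cells) mice were the controls with both target genes intact. GS4M2 and GS4T mice lost Smad4, a shared transducer of BMP and TGF-beta signals, and GA3M2 and GA3T mice lost Alk3, a BMP receptor that the tables list as Bmpr1a. The Cre is active in Gli1+ stromal cells, so the goblet cells sorted from GS4M2 and GA3M2 mice are not the cells in which the gene was deleted. Organoids, which are epithelium without stroma, carry the genotype label WT, and by the text of the study its colonic organoids came from Muc2-mCherry mice. The study describes the organoids of these treatments as distal colon organoids. They were kept untreated or received 10 nM IL-1 or 10 nM IL-17A for 12 or 72 h, with 3 libraries per group. IL-1 here stands for IL-1a and IL-1b given together, titled IL1a+IL1b. Whether the libraries of a group come from separate animals is not in the labels, so the p-values measure the spread between these libraries. This spread may be technical, except in groups whose libraries differ widely in Xist, which is given below.

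AP-1 is a dimer of a Jun protein with a Fos protein, another Jun protein or a relative such as Atf3, and it binds short DNA elements in promoters and enhancers. Most of its genes are immediate early genes, whose transcription starts within minutes of a growth factor, cytokine or stress signal, without new protein synthesis, and whose mRNA is quickly degraded. MAP kinases drive this response through the factors bound at these promoters, and in the colon the same genes respond to wounding, to inflammatory cytokines and to the handling of tissue.

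Of the 10 genes 8 had an entry in the RefSeq promoter table (GRCm38.p6), and the 250 bases before the start were searched on both strands. The letters TGACG, the core of the element bound by CREB and ATF proteins, were found in 4 of these 8 promoters, those of Fos, Fosb, Junb and Atf3, and in 17.8% of all 32851 promoters of the same length. They lie 129 and 66 bases before the start of Fos, 60 before Fosb, 106 before Junb and 7 before Atf3. The 4 promoters are shown because they hold the match, with the matched letters in capitals (CGTCA is TGACG on the other strand). In GENCODE M21 the windows of Fos and Junb lie upstream of the gene. That of Fosb reaches 6 bases into its first exon, and that of Atf3 lies inside the gene, upstream of an internal start, with 7 bases in exons and the rest intronic. They are Fos at chr12:85473640-85473889 on the plus strand, Fosb at chr7:19310046-19310295, Junb at chr8:84978749-84978998 and Atf3 at chr1:191183334-191183583 on the minus strand.
Fos: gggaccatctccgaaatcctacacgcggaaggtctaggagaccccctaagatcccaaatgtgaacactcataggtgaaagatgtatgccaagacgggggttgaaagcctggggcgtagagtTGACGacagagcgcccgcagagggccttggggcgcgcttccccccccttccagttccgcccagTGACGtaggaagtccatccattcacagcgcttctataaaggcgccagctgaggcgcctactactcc
Fosb: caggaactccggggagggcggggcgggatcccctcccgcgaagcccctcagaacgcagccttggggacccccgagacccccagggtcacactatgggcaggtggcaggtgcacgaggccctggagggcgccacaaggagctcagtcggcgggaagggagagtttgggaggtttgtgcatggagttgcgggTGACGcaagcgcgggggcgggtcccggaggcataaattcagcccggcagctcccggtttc
Junb: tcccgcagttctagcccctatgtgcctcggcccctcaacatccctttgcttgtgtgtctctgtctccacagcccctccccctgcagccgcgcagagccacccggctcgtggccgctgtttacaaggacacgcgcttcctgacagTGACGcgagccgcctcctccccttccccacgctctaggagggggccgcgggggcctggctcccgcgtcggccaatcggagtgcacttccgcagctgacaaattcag
Atf3: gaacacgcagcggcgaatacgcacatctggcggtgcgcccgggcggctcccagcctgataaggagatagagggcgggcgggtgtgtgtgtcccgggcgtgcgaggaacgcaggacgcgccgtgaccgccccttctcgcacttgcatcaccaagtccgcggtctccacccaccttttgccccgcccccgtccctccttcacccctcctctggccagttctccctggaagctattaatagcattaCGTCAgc
The full palindrome TGACGTCA, which contains TGACG, was in none of the 8 windows and in 1.55% of all promoters. TGANTCA, the element bound by Fos and Jun dimers, was in none and in 6.75%, and the CArG box of serum response factor was in none and in 1.47%. TATAAA was in 1, that of Fos at 33 bases before the start, and in 12.4% of all promoters. A match describes the sequence only, and its absence says only that these letters are not in this window. Among the windows without TGACG, that of Fosl2 lies wholly in exons and ends 670 bases past the gene start. That of Jund ends at position 70697738, while the gene starts at 70698949, and that of Ier3 reaches 29 bases into an exon.

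Each library held 14222902 to 23686940 reads on named genes (median 17158199.5). Of the 42 samples 40 were distinct libraries, since control libraries 2 and 4 at 12 h hold the same reads as control libraries 1 and 4 at 72 h. A further 3 pairs were much closer to each other than other replicates, namely libraries 3 and 4 of IL-1 and of IL-17A at 12 h and control libraries 2 and 4 at 72 h (chi-square per degree of freedom over genes 3.03, 3.32 and 3.30, and 18 to 212 in the other pairs of one group). They differed by more than sampling noise and were kept apart, and were averaged as an alternative. Defining markers fitted the labels of each kind of sample, apart from Gli1 in 2 libraries. The summed level of 8 stromal markers was 41861 to 58185 CPM (reads of a gene scaled to the library total) in sorted stromal cells and at most 29.8 in goblet cells and 4.02 in organoids. The gene Gli1 itself was 38.0 to 99.6 CPM in 10 stromal libraries, but 1.40 in the second proximal GS4T library and 1.98 in the second proximal GA3T library. Smad4 was 1604 and 1673 normalized counts in proximal GWTT cells and 705 and 835 in GS4T cells, and 1781 and 1703 against 680.3 and 1171 in the distal colon. Bmpr1a was 2960.0 and 3220.2 in proximal GWTT cells and 2233 and 1842 in GA3T cells, and 3359 and 3485 against 2203 and 2043 in the distal colon. By limma, at the thresholds given below, only the proximal fall of Smad4 was called (log2 fold change -1.09, adjusted p = 0.010). Distal Smad4 (-0.96, adjusted p = 0.042) and proximal and distal Bmpr1a (-0.61 and -0.69, adjusted p = 0.12 and 0.10) were not, so much of the RNA of the targeted genes remained. Xist was 0 to 0.813 CPM in some libraries and 998 to 1865 in the others, and these classes are not even between groups, which is given below where it touches a result. It also differed within groups, as in proximal GWTM2 cells (1201 and 0.378 CPM) and proximal GWTT cells (0.428 and 1649 CPM). The libraries of such a group are therefore not repeats of the same sample.

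The first comparison set freshly sorted cells beside organoids in CPM, as a description without a test. Fos, Fosb, Jun and Egr1 stood apart. Fos, which encodes the c-Fos subunit, ranged over 703 to 2304 (median 1419.8) CPM in the 24 sorted libraries and 37.5 to 108 (median 62.5) in the 16 distinct organoid libraries. Fosb, a close relative of Fos, was 314 to 1795 (median 1078) in sorted cells and 0.172 to 2.69 (median 0.912) in organoids, where the lowest level is 3 reads. For both genes every sorted library lay above every organoid library, by ratios of the medians of 22.7 and 1183. Jun, which encodes c-Jun, was 325 to 1577 (median 1043) in sorted cells and 40.1 to 107 (median 54.2) in organoids, a ratio of the medians of 19.3. Egr1, a zinc finger transcription factor that is not part of AP-1, was 368 to 4269.6 (median 1028) against 43.5 to 97.7 (median 63.9), a ratio of 16.1. These 4 of 10 genes did not overlap between sorted cells and organoids, where 1.54% of 12190 genes were higher in every sorted library (1.28% with TMM scaling, in which the same number of members, 4, did not overlap).

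The other 6 genes overlapped. Junb, a Jun protein with weaker transforming activity than c-Jun, was 207 to 2344 (median 668) CPM in sorted cells and 78.4 to 427 (median 156) in organoids. Atf3, a stress-induced partner of Jun proteins, was 70.9 to 586 (median 191) and 10.9 to 80.9 (median 23.1), and only 2 organoid libraries, both treated with IL-1 for 72 h, reached the lowest sorted ones. Jund, the most steadily expressed Jun gene in most tissues, was 30.0 to 98.4 (median 61.9) and 15.2 to 66.6 (median 36.5). Fosl2, which encodes Fra-2, was 127 to 613 (median 239) and 122 to 241 (median 149.8). Ier3, an early gene that guards cells against death and does not bind DNA as AP-1 does, was 11.3 to 229 (median 74.2) and 42.6 to 288 (median 73.9). Fosl1, which encodes Fra-1, was 0.0563 to 4.11 (median 1.41) and 0.856 to 5.58 (median 2.27), a low gene in every kind of sample. All 10 genes together took 0.24 to 0.72% of the reads in goblet cells, 0.42 to 1.32% in stromal cells and 0.05 to 0.14% in organoids.

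**Figure D1:**
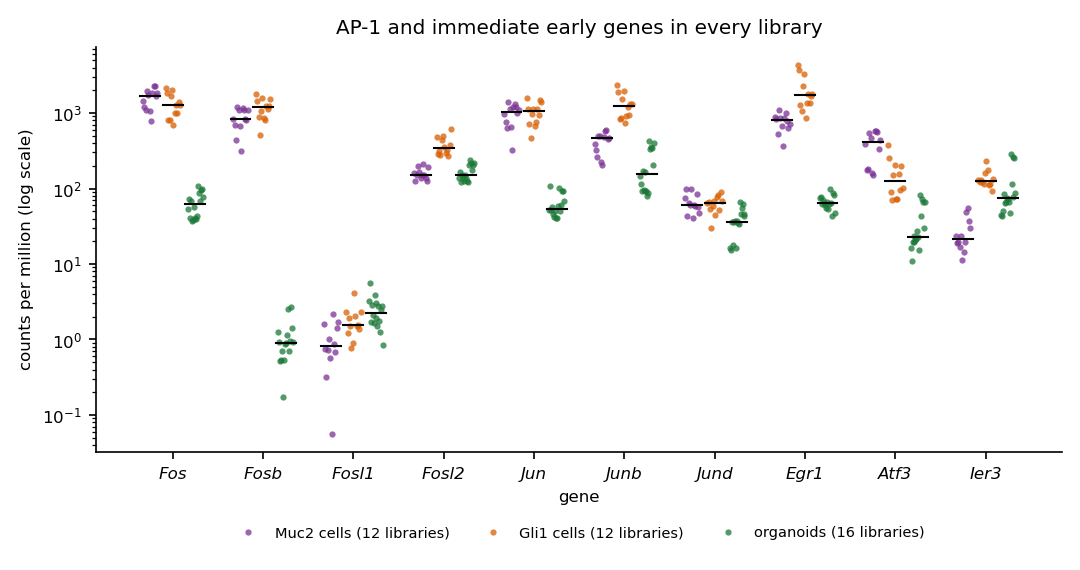
Level of each gene in CPM (log scale) in 12 goblet cell (Muc2), 12 stromal cell (Gli1) and 16 organoid libraries, 1 point per library, with the median as a bar. Fos, Fosb, Jun and Egr1 lie above every organoid library in both sorted kinds, while Fosl1 is the lowest gene in sorted cells.

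By cell kind, 5 genes were higher in every goblet cell library than in every organoid library, the 4 above with Atf3, where 4.69% of all genes were. In stromal cells the 6 were Fos, Fosb, Jun, Egr1, Junb and Fosl2, where 16.0% of all genes were. Junb, Fosl2 and Ier3 were higher in every stromal than in every goblet cell library, 3 genes against 14.6% of all genes. Among controls alone, with 2 distal GWTM2 libraries and 4 untreated organoid libraries, 7 genes were higher in the goblet cells and 2, Fosl1 and Ier3, were lower, where 20.3% and 29.5% of all genes were. Ier3 was 11.3 to 23.6 (median 17.4) CPM in the distal GWTM2 cells and 42.6 to 50.9 (median 45.6) in untreated organoids. Cell kind, culture, digestion and sorting differ at once between sorted cells and organoids and cannot be told apart.

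Compared with each other by RPKM, which scales reads by exon length and depth, the genes had another order in each kind of control sample. In GWTM2 goblet cells Fos had the highest median level, 559.6 RPKM, and its 4 libraries lay above those of every other gene, followed by Jun at 269.9, Egr1 at 188 and Junb at 155, and the ranges of these 3 over the 4 libraries overlapped for Junb with Jun and with Egr1. Ier3, Fosl2 and Fosl1 were last there, at 18.7, 15.5 and 0.437. In GWTT stromal cells Junb was 836, Fos 828 and Egr1 777, and the ranges of these 3 over the 4 libraries overlapped. In untreated organoids Junb and Ier3 led at 45.0 and 40.3, Fos was 20.6 and Fosb was last at 0.166.

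Loss of Smad4 in Gli1+ stromal cells was compared with GWTT cells in each segment. Of the 10 genes 6 fell in proximal GS4T cells, namely Fos, Fosb, Jun, Junb, Egr1 and Atf3, and 4 of these, Fos, Junb, Egr1 and Atf3, fell in distal GS4T cells, all to between 0.257 and 0.483 of the control level. A gene counted as called where limma gave an adjusted p under 0.05 and its log2 fold change was 1 or more in size. In proximal cells 9.61% of 15319 genes tested were called and 4.36% were called lower, and in distal cells 14.0% of 15262 were called and 6.08% were called lower. Among the Fos genes, Fos was 35954 and 30751 normalized counts in proximal GWTT cells and 13148 and 13659 in GS4T cells (log2 fold change -1.31, SE 0.16, adjusted p = 0.012). In the distal colon it was 27174 and 33134 against 11530.1 and 16635 (log2 fold change -1.12, SE 0.23, adjusted p = 0.021). Both GS4T libraries lay below both control libraries in each segment. In these bulk samples fewer cells of a type and less RNA per cell cannot be told apart.

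Fosb was 30342 and 24166 in proximal GWTT and 14526 and 8847 in GS4T cells (log2 fold change -1.26, SE 0.28, adjusted p = 0.044), and 17647 and 25905 against 13891 and 13311 in the distal colon (log2 fold change -0.65, SE 0.21, adjusted p = 0.074). The groups did not overlap in either segment, and the distal difference was not called. Fosl2 had overlapping groups in the proximal colon, at 8179 and 4719.6 against 5134 and 4792, and was 7266 and 7958 against 5811 and 4893 in the distal colon (log2 fold change -0.51, SE 0.13, adjusted p = 0.042), which is past the p threshold and short of the fold threshold. Fosl1 was 39.3 and 20.5 against 31.4 and 25.9 in proximal cells. It was 12.7 and 14.5 against 67.3 and 34.1 in distal cells (log2 fold change 1.75, SE 0.54, adjusted p = 0.067), so the distal GS4T libraries were the higher ones for Fosl1, and limma did not call it. DESeq2 called it higher (log2 fold change 1.90, SE 0.74, adjusted p = 0.040), as the fifth gene called in distal cells, where it called 15.8% of all genes, and edgeR did not (1.88, adjusted p = 0.063).

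Among the Jun genes, Jun was 26669 and 18732 in proximal GWTT and 11652 and 8007 in GS4T cells (log2 fold change -1.21, SE 0.26, adjusted p = 0.042), and 16145 and 18531 against 11073 and 12829 in the distal colon (log2 fold change -0.54, SE 0.15, adjusted p = 0.053). The groups did not overlap in either segment, and only the proximal difference was called. Junb was 39623 and 31460.5 against 13605 and 14892 in the proximal (log2 fold change -1.31, SE 0.19, adjusted p = 0.016) and 24819.5 and 31667 against 12064 and 15193 in the distal colon (log2 fold change -1.05, SE 0.20, adjusted p = 0.017). Its libraries lay apart in both segments, as those of Fos did. Jund was 1075 and 1096 against 869.6 and 512 in the proximal colon and 968 and 1111 against 726 and 1294 in the distal colon, and was not called (log2 fold changes -0.70 and -0.10, adjusted p = 0.13 and 0.82).

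Egr1 and Atf3 had the lowest log2 fold changes of the 10 genes in proximal GS4T cells. Egr1 was 72187 and 61101 normalized counts in proximal GWTT cells and 20488 and 18246 in GS4T cells (log2 fold change -1.78, SE 0.20, adjusted p = 0.010), and 37120.3 and 53282 against 13910.2 and 22682 in the distal colon (log2 fold change -1.32, SE 0.30, adjusted p = 0.029). Atf3 was 6415 and 4229.9 against 1476 and 1213 in the proximal (log2 fold change -1.96, SE 0.23, adjusted p = 0.011) and 2465 and 3350.4 against 1183 and 1211 in the distal colon (log2 fold change -1.26, SE 0.16, adjusted p = 0.0058). For both genes the GS4T libraries lay below the control libraries in each segment. Ier3 was 2216 and 2032 against 2085 and 2096 in the proximal colon, where its groups overlapped, and 1904 and 2623 against 3752 and 2929 in the distal colon (log2 fold change 0.57, SE 0.20, adjusted p = 0.089), where the GS4T libraries were the higher ones and the difference was not called.

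**Figure D2:**
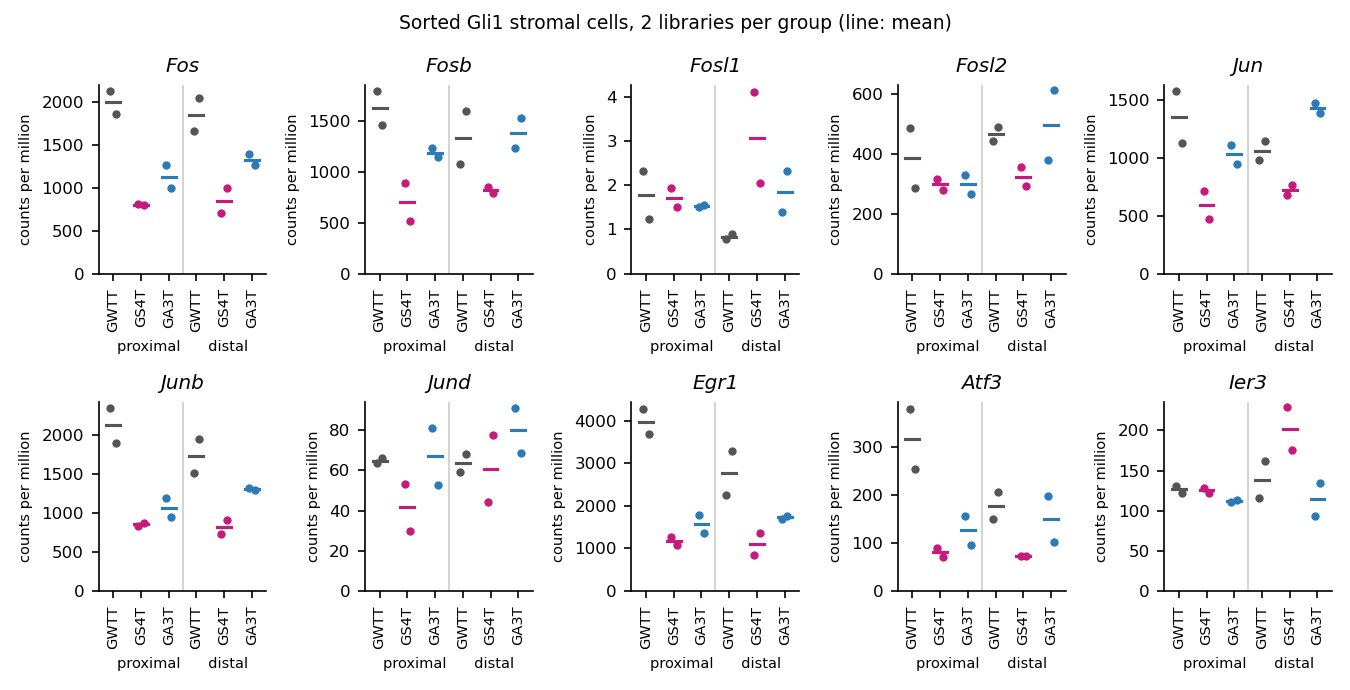
CPM of the 10 genes in sorted Gli1+ stromal cells, 2 libraries per genotype and segment as points and their mean as a line. In both segments Fos, Junb, Egr1 and Atf3 lie lower in both GS4T libraries than in both GWTT libraries, and Fosl1 and Ier3 do so in neither.

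The median log2 fold change of the 10 genes was -1.23 in proximal and -0.60 in distal GS4T cells, beside 0.02 and 0.00 over all genes tested. In proximal cells 7 of 10 genes were lower without overlap, where 31.4% of all genes were, and in distal cells 7 were lower and 2 higher, where 33.1% and 34.4% of all genes were. The segments were compared as an interaction in limma, and no fold change of the 10 genes was called different between them (adjusted p = 0.49 to 0.93), where 0.195% of all genes were called. Without adjustment 1 gene, Fosl1, passed the same thresholds, where 5.06% of all genes did, and edgeR called 0.

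Single libraries bear on these calls. The second proximal GS4T library, the one with almost no Gli1 reads, lay with the first for the genes called, and without it the log2 fold changes were -1.34 for Fos, -0.90 for Fosb, -0.94 for Jun, -1.38 for Junb, -1.70 for Egr1 and -1.82 for Atf3. No gene of the 10 was then called (adjusted p = 0.068 to 0.17 for these 6), as was the case without the first GS4T library, and the calls over all genes dropped to 360 and 119 from 1472. The first proximal GWTT library was the only one of these 4 with little Xist, and with Xist class as a block Fos, Junb, Egr1 and Atf3 were called, while Fosb and Jun were not (log2 fold changes -1.09 and -0.96, adjusted p = 0.098 and 0.088). All 4 distal libraries had high Xist. In the distal colon leaving out either GWTT library or the first GS4T library left 1 gene called, Atf3.

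Markers of other cells moved with the genotype as well. The summed level of 9 macrophage markers was 194 to 753 CPM in the 4 GWTT libraries and 968 to 2238 in the 4 GS4T libraries, and 7 of 9 and 5 of 9 rose in the proximal and the distal colon. The 7 neutrophil markers summed to 2.39 to 6.62 in GWTT and 76.4 to 251 in GS4T cells, and 5 of 6 and 7 of 7 tested rose. Not all these markers are confined to such cells. Ly6g of the neutrophil list was 133 to 774 CPM in organoids, where the others of that list were at 0, and Cd14 of the macrophage list was 39.3 to 233 there. The 8 epithelial markers summed to 14.1 to 554 and 733 to 1715, and 1 and 7 of them rose. The 6 lymphoid markers summed to 1628 to 4872 and 172 to 879, and 1 of 6 and 3 of 5 fell. Among the stromal markers Lum fell in both segments (log2 fold changes -1.78 and -2.04, limma adjusted p = 0.028 and 0.0018) and Dcn in the distal colon (-1.06, adjusted p = 0.025). Among the smooth muscle markers Acta2 rose in the proximal colon (1.93, adjusted p = 0.0072) and Myh11 fell in the distal colon (-1.25, adjusted p = 0.010). The part of the other cells and of the mix of stromal cells in the levels of Fos, Jun and their relatives was not tested.

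Other genes of the pathway were taken from lists, and the values in parentheses are log2 fold changes with limma's adjusted p. Of 18 other immediate early genes tested 5 fell and none rose in each segment, among them Arc (-1.63, adjusted p = 0.021), Myc (-1.55, adjusted p = 0.036) and the antiproliferative Btg2 (-1.41, adjusted p = 0.018) in the proximal colon, and Egr2 (-1.92, adjusted p = 0.0027), a paralog of Egr1, Btg2 (-1.44, adjusted p = 0.0044) and the nuclear receptor Nr4a1 (-1.41, adjusted p = 0.011) in the distal colon. The median log2 fold change of this list was -0.72 in both segments. Of 10 other AP-1 and Maf family genes 2 rose and none fell in the distal colon, namely Batf (1.49, adjusted p = 0.027) and Batf3 (2.15, adjusted p = 0.021), which act in immune cells. Of 16 genes of MAP kinase feedback 1 rose, the phosphatase Dusp2 (1.79 and 2.17, adjusted p = 0.030 and 0.0017), and 1 fell in each segment, the mRNA decay factor Zfp36 (-1.31, adjusted p = 0.019) in the proximal and the receptor kinase inhibitor Spry1 (-1.61, adjusted p = 0.0010) in the distal colon. Of 10 genes of NF-kB feedback Bcl3 rose in both segments (1.33 and 1.23, adjusted p = 0.0066 and 0.0048) and Tnfaip3 in the distal colon (1.25, adjusted p = 0.0056).

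Loss of Alk3 in stromal cells was compared with the same GWTT libraries, so the 2 knockouts are not independent of each other. In GA3T cells limma called none of the 10 genes in either segment, where it called 0.358% of all genes proximally and 0.0% distally. With p not adjusted 2 of the 10 genes passed in the proximal colon and 0 in the distal colon, where 9.46% and 7.77% of all genes did. DESeq2 called 2 and 0, where 6.44% of all genes were called in the proximal colon, and edgeR called 0 and 0. The 2 genes were Egr1 and Atf3. Egr1 was 75950.3 and 64244 normalized counts in proximal GWTT cells as this table scales them and 31809.9 and 23919 in GA3T cells (log2 fold change -1.34, SE 0.27, adjusted p = 0.10). Atf3 was 6749 and 4447 against 2799 and 1693 (log2 fold change -1.33, SE 0.32, adjusted p = 0.12). The GA3T libraries were below the control libraries for both genes. Without the second GA3T library, which has almost no Gli1 reads, the log2 fold changes were -1.13 for Egr1 and -0.97 for Atf3 (adjusted p = 0.25 and 0.31). The first GA3T library of each segment has low Xist, as the first proximal GWTT library does. The macrophage markers summed to 806 to 1502 CPM in the 4 GA3T libraries and the epithelial markers to 453 to 1086, and their part in these levels was not tested.

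Fos was 37828 and 32333 in proximal GWTT and 22489 and 17393 in GA3T cells (log2 fold change -0.82, SE 0.23, adjusted p = 0.15), and 31000.5 and 37708 against 24794 and 24258 in the distal colon (log2 fold change -0.48, SE 0.22, adjusted p = 0.31). Junb was 41688 and 33078 against 21369 and 16533 in the proximal (log2 fold change -0.98, SE 0.24, adjusted p = 0.13) and 28314 and 36037 against 23438 and 25017 in the distal colon (log2 fold change -0.40, SE 0.22, adjusted p = 0.40). For Fos, Junb and Egr1 the GA3T libraries were below the controls in both segments without a call by limma. Jun was 18418 and 21089 in distal GWTT and 26198 and 26805 in GA3T cells (log2 fold change 0.43, SE 0.19, adjusted p = 0.31), the higher level being in GA3T cells, and its proximal log2 fold change was -0.37. Among Fosb, Fosl1, Fosl2, Jund and Ier3 the log2 fold changes lay between -0.44 and 0.02 in the proximal and between -0.29 and 1.06 in the distal colon. In proximal GA3T cells 6 of 10 genes were lower without overlap, where 27.5% of all genes were, and in distal cells 3 were lower and 3 higher, where 26.8% and 27.5% of all genes were. The median of the 10 genes was -0.40 and -0.12, beside 0.01 in each segment over all genes, and no gene of the other lists was called. The fold changes of the segments were not called different for any of the 10 genes (adjusted p = 0.66 to 0.99 in limma, where 0.0% of all genes were called), with 0 without adjustment and 0 by edgeR.

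In goblet cells the deletion lies in the neighbouring stroma, and the comparison asks whether the genes change in epithelium in which Smad4 and Alk3 are not targeted. Mean Bmpr1a was 1527 normalized counts in GS4M2 and 1931 in GWTM2 cells proximally, and 1437 and 1798 distally. For GA3M2 and GWTM2 cells it was 1454 and 2048 proximally, and 1391 and 1728 distally. Mean Smad4 was 1811 and 1794, and 2627 and 2805, for GS4M2. For GA3M2 it was 2665 and 1904, and 3656 and 2695. None of these differences was called, and their cause was not tested. In GS4M2 cells limma, edgeR and DESeq2 called none of the 10 genes in either segment, and with p not adjusted the count was 0 as well. Over all genes limma called 0.325% proximally and 0.0% distally, and 4.28% and 2.7% passed without adjustment. For Fos, Fosb, Jun, Junb, Egr1 and Atf3 the 2 GS4M2 libraries of a segment differed from each other by more than the groups did. In the distal colon Fos was 30269 and 19349.8 normalized counts in GWTM2 cells and 13301 and 32151 in GS4M2 cells (log2 fold change -0.23, SE 0.47, adjusted p = 0.87), and Jun was 19980.1 and 11759 against 5464 and 21105 (log2 fold change -0.51, SE 0.67, adjusted p = 0.79). Fosb was 19144 and 12257 against 5288 and 20488 (log2 fold change -0.56, SE 0.65, adjusted p = 0.76). For Fos, Jun and Fosb the first GS4M2 library was the lowest and the second the highest of the 4 libraries, and the same held in the proximal colon, where Fos was 24630.3 and 20315 against 18192 and 33287.

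Atf3 was 6562 and 3036 in proximal GWTM2 and 3010.2 and 9065 in GS4M2 cells (log2 fold change 0.23, SE 0.56, adjusted p = 0.88), and 8198 and 2874 against 2543 and 9999 in the distal colon (log2 fold change 0.05, SE 0.79, adjusted p = 0.98). Its level thus varied as widely between libraries of one genotype as between genotypes. Jund was 1282 and 1686 against 707 and 1083 in the proximal (log2 fold change -0.75, SE 0.23, adjusted p = 0.20) and 1065 and 1768 against 686 and 1046 in the distal colon (log2 fold change -0.70, SE 0.32, adjusted p = 0.50), so it was lower in both GS4M2 libraries of each segment and not called. The log2 fold changes of Fosl1, Fosl2, Junb, Egr1 and Ier3 lay between -1.13 and 0.24 in the proximal and between -0.75 and 0.17 in the distal colon. Without overlap 3 genes, Jund, Fosl1 and Ier3, were lower in the proximal colon and Jund alone in the distal colon, where 25.2% and 22.6% of all genes were. A listing in the study heads the proximal groups the other way round than the deposited table. The deposited names were used, since both GWTM2 libraries there had the same reads for 100% of genes as the libraries of that name in the proximal GA3M2 table, beside 0.906 to 1.02% of genes for the GS4M2 libraries.

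**Figure D3:**
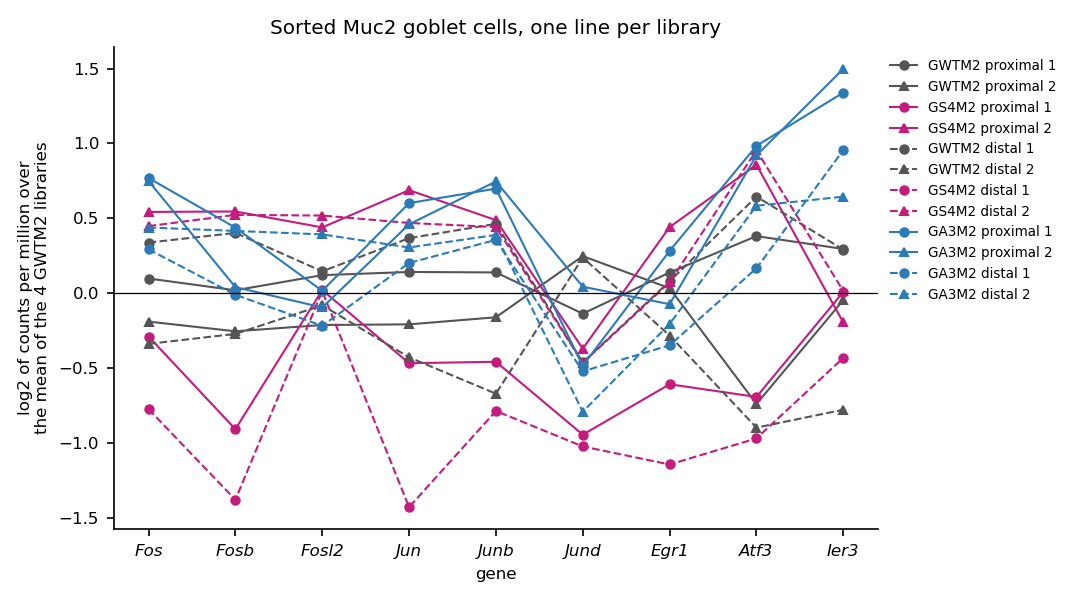
CPM of 9 genes in each sorted goblet cell library as log2 of its ratio to the mean of the 4 GWTM2 libraries, 1 line per library (Fosl1, at few reads, is left out). The first GS4M2 library of each segment lies below 0 for Fos, Fosb, Jun, Junb, Egr1 and Atf3 and the second above 0, and both GA3M2 libraries of each segment lie above 0 for Ier3.

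In GA3M2 cells limma called none of the 10 genes either, where it called 0.0899% of all genes proximally and 0.0% distally. With p not adjusted 2 genes passed in the proximal colon, Ier3 and Atf3, and 1 in the distal colon, Ier3, where 6.83% and 4.12% of all genes did. DESeq2 called 1, Ier3, in the proximal colon, where it called 3.23% of all genes, and 0 in the distal colon, and edgeR called 0 in both. Ier3 was 429.5 and 339 normalized counts in proximal GWTM2 and 893 and 1046 in GA3M2 cells (log2 fold change 1.34, SE 0.21, adjusted p = 0.12), and 400.3 and 197 against 644 and 494 in the distal colon (log2 fold change 1.00, SE 0.37, adjusted p = 0.41). Both GA3M2 libraries lay above both control libraries in each segment. Atf3 was 6987 and 3210.1 against 10693 and 10739 in the proximal colon (log2 fold change 1.18, SE 0.37, adjusted p = 0.26) and overlapped in the distal colon, at 7843 and 2774 against 5709.7 and 7254.

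Fos was 26224 and 21477 against 42079.5 and 43566 in the proximal colon (log2 fold change 0.85, SE 0.27, adjusted p = 0.26), Jun was 17484 and 13716 against 24234 and 23060.1 (log2 fold change 0.61, SE 0.24, adjusted p = 0.32) and Junb was 7128 and 5790.2 against 10587 and 11491 (log2 fold change 0.78, SE 0.21, adjusted p = 0.22). With Fosb, Atf3 and Ier3 these make 6 of 10 genes that were higher without overlap in proximal GA3M2 cells, where 26.0% of all genes were. In the distal colon 2 were higher and 2, Jund and Egr1, were lower, where 22.1% and 22.2% of all genes were. The median of the 10 genes was 0.51 and 0.29, beside 0.00 in each segment over all genes. Fosl2 and Egr1 had proximal log2 fold changes of 0.05 and 0.06. The first GWTM2 library of each segment has high Xist and all other goblet cell libraries have low Xist, so 1 control library per segment is of the same class as the knockouts. Of the other lists only markers were called in proximal GA3M2 cells, where Muc2, the secreted mucin, fell (-3.63, adjusted p = 0.046) and Lyz2 rose from no reads in either GWTM2 library to a mean of 400.1 normalized counts. For neither knockout was a gene of the 10 called different between the segments by the interaction test in limma (adjusted p = 0.87 to 0.98 for GS4M2 and 1.0 for each gene for GA3M2, where 0.0% of all genes were called for either), with 0 without adjustment and 0 by edgeR.

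Organoids test a direct answer of colonic epithelium to the cytokines. After 12 h limma called none of the 10 genes with IL-1 or with IL-17A, where it called 0.0542% and 0.0385% of all genes. The counts were also 0 by edgeR, by DESeq2 and with p not adjusted, where 0.922% and 1.08% of all genes passed. Ier3 and Atf3 alone were higher in every treated library, 2 of 10 genes for each cytokine, where 5.3% and 5.91% of all genes were. Ier3 was 714, 679 and 787 normalized counts in controls and 1402, 1058 and 1078 with IL-1 (log2 fold change 0.69, SE 0.14, adjusted p = 0.51). With IL-17A it was 749.7, 712 and 824 against 1296, 1250.4 and 1139 (log2 fold change 0.69, SE 0.11, adjusted p = 0.19). In DESeq2 the adjusted p of Ier3 was 0.014 with IL-1 and 4.8e-05 with IL-17A, past the p threshold and short of the fold threshold. In edgeR the adjusted p was 0.57 and 0.20. Atf3 was 261, 174 and 299 against 319, 381 and 340.2 with IL-1 (log2 fold change 0.53, SE 0.22, adjusted p = 0.89) and 274, 182 and 313 against 372, 459.6 and 389.6 with IL-17A (log2 fold change 0.69, SE 0.22, adjusted p = 0.86). For the other 8 genes the groups overlapped, with log2 fold changes between -0.91 and 0.50 for IL-1 and between -0.55 and 0.46 for IL-17A. The controls serve both cytokines. Xist was low in control libraries 1 and 2 and in library 1 of each cytokine. It was high in control library 4 and in libraries 3 and 4 of each cytokine. Jund was 15.2 to 17.6 CPM in the low class and 34.9 to 37.1 in the high class. The classes are uneven between controls and treated libraries, and the fold changes above do not account for them.

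At 12 h the genes of NF-kB feedback were the list with calls. Nfkbiz, an inducible NF-kB cofactor, rose with IL-1 (log2 fold change 1.42, adjusted p = 0.042 in limma) and with IL-17A (2.34, adjusted p = 0.0013), and Nfkbia, the inhibitor of NF-kB, rose with IL-1 (1.2, adjusted p = 0.042). None of 15 other immediate early genes, 15 genes of MAP kinase feedback or 8 other AP-1 and Maf family genes tested was called with either cytokine.

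After 72 h 6 of the 10 genes rose with IL-1, namely Fos, Fosl2, Junb, Jund, Atf3 and Ier3, and 4 rose with IL-17A, namely Fos, Junb, Atf3 and Ier3. Control libraries 1 and 4 of this time are also listed as 12 h controls, and control library 2 is nearly identical to library 4. At which time these controls were collected is therefore not known, and cytokine and time in culture cannot be told apart in these rises. Over all genes limma called 23.0% with IL-1 (10.9% higher) and 7.94% with IL-17A (5.02% higher). Junb was 1712, 1333 and 1389 normalized counts in controls and 8227, 5544 and 6814 with IL-1 (log2 fold change 2.20, SE 0.18, adjusted p = 0.0020). The IL-17A table scales the same controls slightly differently, and the treated libraries there held 6481, 3181 and 8268 (log2 fold change 1.92, SE 0.35, adjusted p = 0.036). Junb was higher in every treated library than in every control library. Atf3 was 165, 233 and 287 in controls, 1560.2, 728 and 1389.8 with IL-1 (log2 fold change 2.38, SE 0.33, adjusted p = 0.0032) and 1258, 475 and 1353 with IL-17A (log2 fold change 2.06, SE 0.43, adjusted p = 0.043). Ier3 was 644, 709.8 and 755 in controls, 5549, 1914 and 1479 with IL-1 (log2 fold change 1.83, SE 0.44, adjusted p = 0.015) and 4858, 3981 and 1808 with IL-17A (log2 fold change 2.22, SE 0.35, adjusted p = 0.035). The treated libraries of Atf3 and Ier3 spread widely, since the second library of each cytokine was the lowest for Atf3 and the first the highest for Ier3, but all were above the controls.

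Fos was 1111, 655 and 599.5 in controls, 2077, 1449.9 and 1325 with IL-1 (log2 fold change 1.06, SE 0.27, adjusted p = 0.019) and 1765, 1526 and 1566 with IL-17A (log2 fold change 1.09, SE 0.25, adjusted p = 0.045). Fosl2 was 2478, 1850.1 and 1804 in controls, 3992, 4067 and 4246 with IL-1 (log2 fold change 1.02, SE 0.16, adjusted p = 0.0040) and 3271, 3230.2 and 4453 with IL-17A (log2 fold change 0.84, SE 0.20, adjusted p = 0.048). Both genes were higher in every treated library, and Fosl2 with IL-17A was short of the fold threshold. Jund was 229.7, 506 and 535 in controls, 1285, 772 and 1059 with IL-1 (log2 fold change 1.36, SE 0.35, adjusted p = 0.019) and 1158, 673 and 951 with IL-17A (log2 fold change 1.19, SE 0.37, adjusted p = 0.071). It too did not overlap, and the IL-17A difference was not called. The other genes were Jun, at 1611, 873 and 767 in controls, 1947, 842 and 1182 with IL-1 and 1761, 1469 and 1405 with IL-17A, and Egr1, at 1168, 927 and 912 in controls, 1884, 1072 and 839 with IL-1 and 1632, 1282 and 980.1 with IL-17A. Their groups overlapped for both cytokines (log2 fold changes 0.28 and 0.59 for Jun, 0.26 and 0.36 for Egr1). Fosb, at 14.2, 17.1 and 7.63 in controls, was 49.4, 12.0 and 18.6 with IL-1 and 50.4, 22.6 and 18.9 with IL-17A (log2 fold changes 0.81 and 1.12, adjusted p = 0.33 and 0.17), and Fosl1 had log2 fold changes of -0.11 and -0.15.

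**Figure D4:**
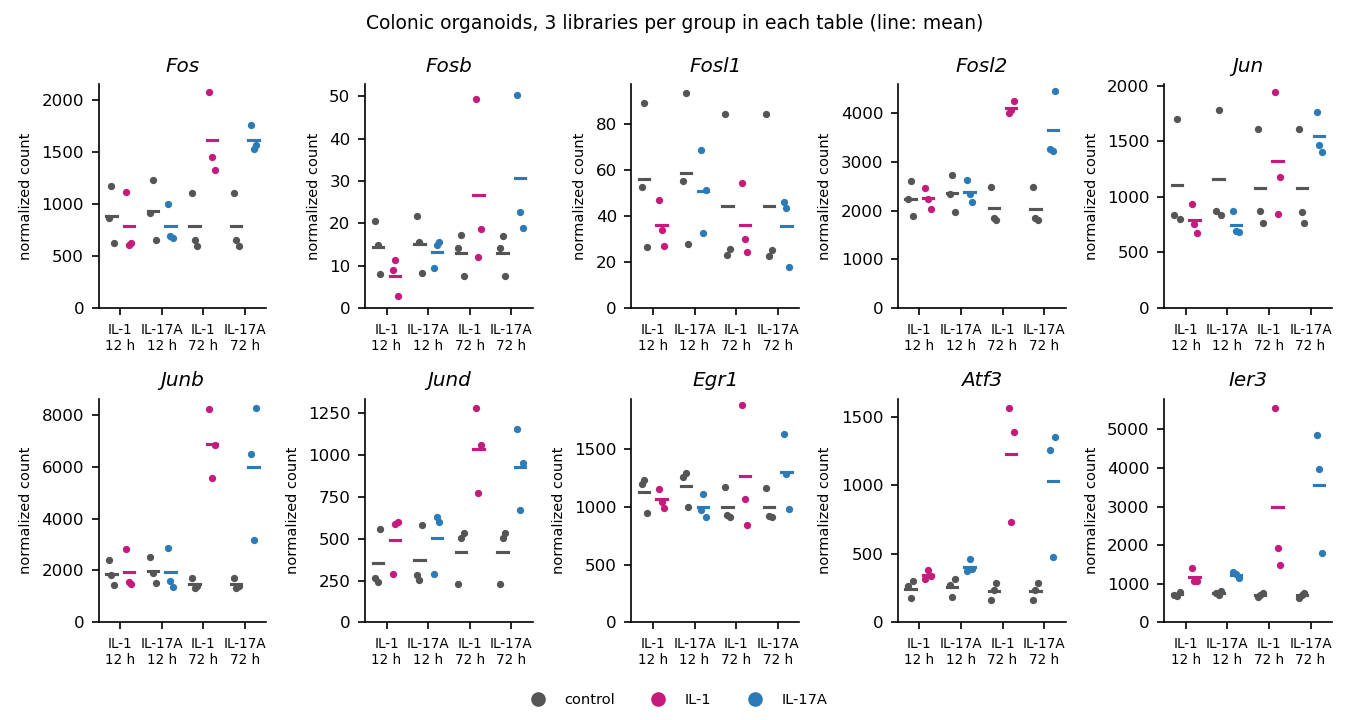
Normalized counts of the 10 genes in organoids, 3 libraries per group as points and their mean as a line, for each cytokine and time beside the controls of the same table. At 72 h every treated library lies above every control library for Fos, Fosl2, Junb, Jund, Atf3 and Ier3, and at 12 h only for Atf3 and Ier3.

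Without overlap 6 genes were higher with IL-1 and 7 with IL-17A at 72 h, where 27.0% and 21.7% of all genes were, and the median of the 10 genes was 1.04 and 1.11, beside 0.00 and -0.01 over all genes. With CPM in place of the deposited scaling the median of all genes moved by -0.296 with IL-1 and -0.289 with IL-17A. On that scale Junb rose by 1.91, Atf3 by 2.08, Ier3 by 1.54 and Jund by 1.06 with IL-1, with calls by limma, while Fos and Fosl2 stood short of the fold threshold at 0.77 and 0.72, and with IL-17A Junb alone was called. Jun and Egr1 with IL-1 turned from 0.28 and 0.26 to -0.02 and -0.04. The scales differ by a single factor per library, so each gene moves by about the same amount as the median. The values therefore cannot decide which scale is the better one. The IL-17A calls also rested on single libraries, since 0 of the 10 genes were called without control library 2 or 4 or without the first IL-17A library, 1 without the first control library or the third IL-17A library and 5 without the second IL-17A library. With the near-identical control libraries 2 and 4 averaged, 4 genes were called with IL-1 and 0 with IL-17A. On recovered reads edgeR called 3 with IL-17A, without Fos (1.04, adjusted p = 0.054), and DESeq2 called 5, with Jund (1.14, adjusted p = 0.018), where they called 6.65% and 17.7% of all genes. All 3 IL-17A libraries have low Xist and 2 of the 3 controls have high Xist, and with Xist class as a block no gene of the 10 was called with IL-17A (Junb 1.70, adjusted p = 0.22). With IL-1, where 2 of 3 treated libraries have low Xist, Junb, Jund, Atf3 and Ier3 were then called and Fos and Fosl2 were at 0.89 and 0.94. The 9 goblet cell markers summed to 6740.3 to 7918 CPM in the 4 distinct control libraries, 2456 to 10846 at 72 h with IL-1 and 2436 to 9954 with IL-17A, and the part of the cell mix in these levels was not tested.

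Genes of the other lists rose at 72 h too, with log2 fold changes and limma's adjusted p in parentheses. Of 15 other immediate early genes 10 rose and 1 fell with IL-1, with Rhob (2.62, adjusted p = 0.0020), which encodes a small GTPase, Klf2 (2.27, adjusted p = 0.011) and the clock gene Per1 (1.73, adjusted p = 0.0053) first among those that rose, and 8 rose with IL-17A, first Klf2 (2.76, adjusted p = 0.036), Rhob (2.39, adjusted p = 0.031) and Arc (1.58, adjusted p = 0.050). The gene that fell was Myc, at -1.36, and the median log2 fold changes of this list were 1.28 and 1.36. Of 15 genes of MAP kinase feedback 9 rose with IL-1 and 6 with IL-17A, and none fell. Dusp1, a phosphatase that turns off MAP kinases, rose by 2.34 and 1.99 on the log2 scale (adjusted p = 0.0020 and 0.030), and Dusp4 by 1.71 and 2.15 (adjusted p = 0.0071 and 0.019). Of 8 and 7 other AP-1 and Maf family genes tested 3 and 2 rose, with Maf (2.60, adjusted p = 0.041) and Maff (1.44, adjusted p = 0.0066) first for IL-1 and Maff (1.39, adjusted p = 0.048) and Jdp2 (1.33, adjusted p = 0.047) for IL-17A. Of 10 genes of NF-kB feedback 4 and 3 rose, with Nfkbiz at 2.16 and 3.05 (adjusted p = 0.0028 and 0.0039) and Nfkbia at 2.08 and 2.58 (adjusted p = 0.0055 and 0.0039).

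Whether the answer at 72 h exceeded that at 12 h was tested as an interaction in limma. With IL-1 the log2 fold change was larger at 72 h for Junb by 2.19 (SE 0.37, adjusted p = 0.0058), for Atf3 by 1.85 (SE 0.43, adjusted p = 0.013) and for Fosl2 by 1.01 (SE 0.22, adjusted p = 0.010), 3 of 10 genes, where 17.4% of all genes were called. Fos differed by 1.25 (SE 0.45, adjusted p = 0.061) and Ier3 by 1.15 (SE 0.52, adjusted p = 0.13), and were not called. With IL-17A none was called, where 0.0393% of all genes were, and the largest differences were 2.0 (SE 0.51, adjusted p = 0.073) for Junb and 1.54 (SE 0.40, adjusted p = 0.073) for Ier3. Without adjustment 5 of the 10 genes passed with IL-17A, where 15.6% of all genes did, and edgeR called 0. Of the 3 control libraries at each time 2 are the same libraries and enter the fit at both times, so its p-values treat them as more libraries than they are. For the same reason its differences cannot be told apart from time in culture. The treated libraries of 72 h were also compared directly with those of 12 h in edgeR, with each distinct control used once. This comparison called 6 of the 10 genes with IL-1, where 20.2% of all genes were called, and 5 with IL-17A, where 10.4% were. The controls entered only its scaling and spread and were not subtracted, so it cannot decide whether the answer to the cytokine grew. IL-17A libraries 3 and 4 at 12 h have high Xist, while all IL-17A libraries at 72 h have low Xist.

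**Figure D5:**
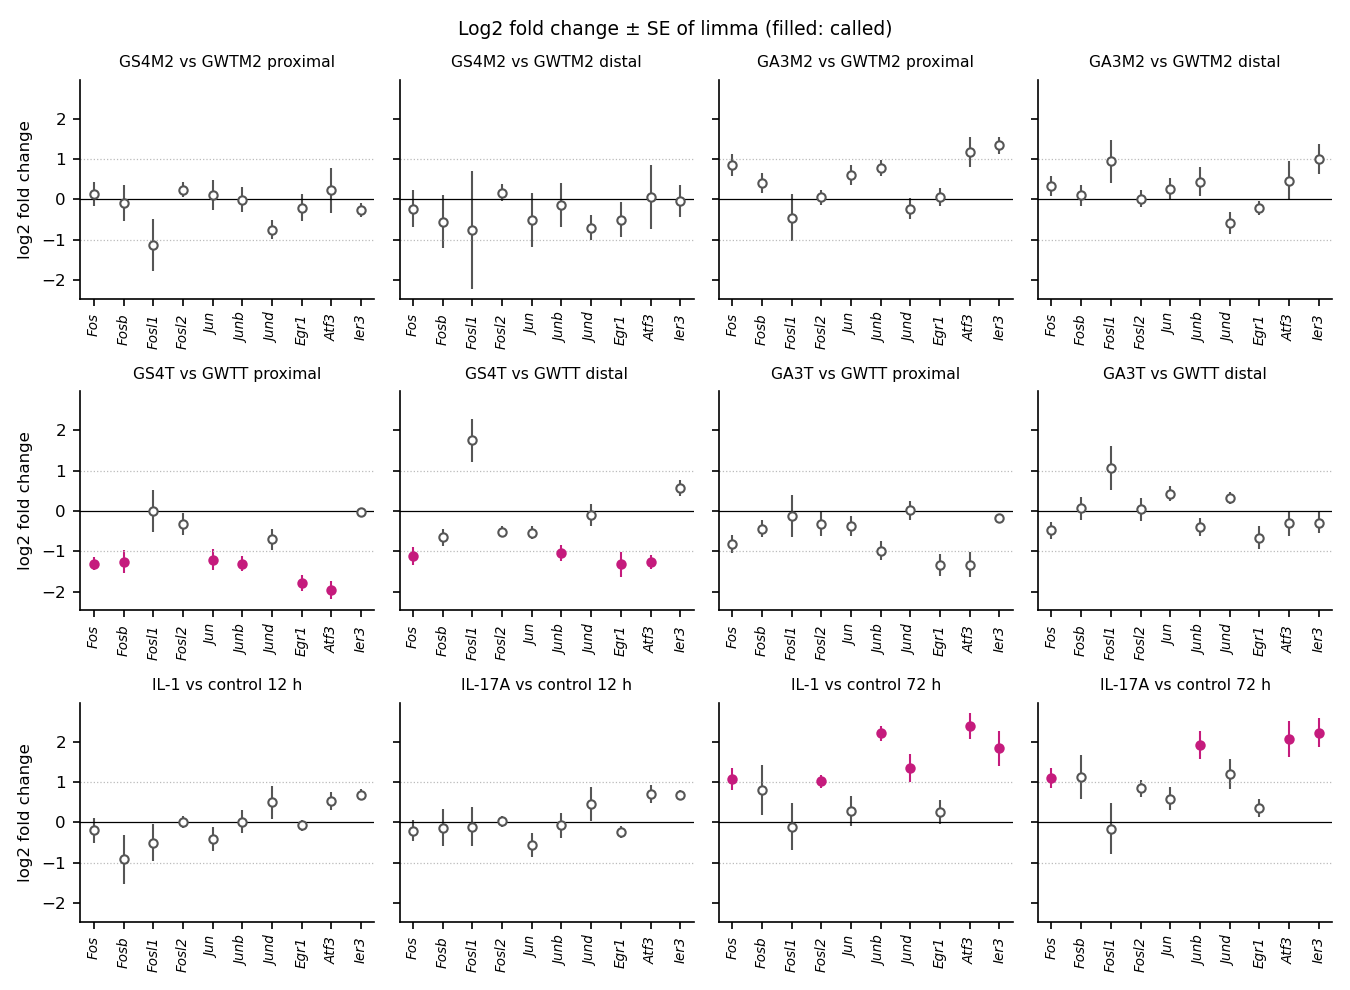
Log2 fold change of each gene with its standard error in limma for the 12 comparisons, with calls as filled points and dotted lines at 1 and -1. Calls lie in GS4T stromal cells, 6 and 4 lower, and in organoids after 72 h, 6 higher with IL-1 and 4 with IL-17A.

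Across libraries of one kind the genes varied together to different degrees. These correlations of log2 CPM are descriptions over 12 libraries each for the sorted kinds and 16 for the organoids, which share depth and scaling and come from several genotypes or treatments. In stromal cells Junb (0.98), Egr1 (0.97) and Atf3 (0.91) had the highest Pearson correlation with Fos, and Ier3 (-0.31) and Fosl1 (-0.55) had a negative one. In goblet cells Junb (0.98), Jun (0.95) and Atf3 (0.95) came first and Jund (0.15) last. In organoids Junb (0.86) and Fosl2 (0.85) came first, with Egr1 at 0.45 and Fosl1 at 0.16. Junb followed Fos most closely in all 3 kinds. Among 9679 other genes with a row in every table and a mean of at least 10 CPM, Nr4a1 (0.98), Egr2 (0.97), Ier2 (0.96), Irf1 (0.95) and Rhbdl3 (0.95) were most like Fos over all 40 libraries, where most of the variation lies between sorted cells and organoids. Over the 24 sorted libraries alone they were Btg2 (0.89), Mepce (0.84), Ier2 (0.83), Dnajb1 (0.80) and Sat1 (0.78). Over the 16 organoid libraries they were Slc25a1 (0.98), Dvl1 (0.97), Grasp (0.96), Arpc1b (0.95) and H2-Q2 (0.95).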

How the data were processed

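Bulk RNA-seq was deposited as 12 tables. The authors mapped reads uniquely with STAR 2.5.3 to mm10, and the counting program and its strand setting are not given in the sources used here. The deposited values are a signal, gene counts divided by one DESeq2 1.28.1 size factor per library within each table. Each column was a multiple of one step (0.752 to 1.26), which gave back whole reads for 100% of values (within 0.1) and thereby CPM. Rows without a name, which held 20.9 to 28.2% of each column in 2 of the tables, were left out. Genes whose normalized counts averaged 10 or more were tested with limma 3.58.1 (R 4.3.3, trend) on log2(value + 1) within each table, with Benjamini-Hochberg adjustment over all genes, so fold changes of low genes are understated. Differences between segments or times were interaction terms. edgeR 4.0.16 and DESeq2 1.42.0 on recovered reads, other scalings, filters and pseudocounts and leaving out each library were alternatives. The fits were tested on simulated data. Sorted cells and organoids were compared in CPM without a test. RPKM used exon lengths of GENCODE M21 (GRCm38). One gene of the other lists is not reported here and was left out of their counts. From the other lists the text names up to 3 called genes of largest change per comparison. Most similar genes are the 5 highest Pearson correlations. The members and lists were chosen with earlier results of these data known.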

Additional observations from a re-analysis of the deposited data

Results flagged for a closer look

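With IL-1, 3 of the 10 genes had a larger log2 fold change at 72 h than at 12 h by the interaction test in limma. The difference was 1.85 for Atf3 (SE 0.43, adjusted p = 0.013), 1.01 for Fosl2 (SE 0.22, adjusted p = 0.010) and 2.19 for Junb (SE 0.37, adjusted p = 0.0058), and all 3 treated libraries at 72 h were above all controls for each of these genes. At 12 h only Atf3 was above all controls. Of the 3 control libraries at each time 2 serve both times, so this difference cannot be told apart from time in culture. With each distinct control library used once and the treated libraries of both times compared directly, edgeR called 6 of the 10 genes, where it called 20.2% of all genes. This contrast is not the interaction, for which edgeR called 3, the same number as limma.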

How the results depend on the processing

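Of 23 calls of single genes 297 of 381 alternative fits kept the call and 84 kept the sign without the call, and none changed sign. Among 2032 alternative fits of fold changes not called 121 had the other sign, and none of these was called. The count of the 10 genes called moved for proximal GA3M2 cells from 0 to 2 with p not adjusted and 1 with DESeq2, for distal GA3M2 cells from 0 to 1 with p not adjusted and 2 with Xist class as a block, and for proximal GA3T cells from 0 to 2 with p not adjusted, 2 with DESeq2 and 1 with Xist class as a block. For IL-17A at 72 h it moved from 4 to 0 with near-identical libraries averaged, 1 with CPM and 0 with Xist class as a block. edgeR called 3 and DESeq2 5 for IL-17A at 72 h, and DESeq2 called 5 in place of 4 in distal GS4T cells. The count for time was 6 in place of 3 genes for IL-1 and 5 in place of 0 for IL-17A where treated libraries of both times were compared directly in edgeR with each distinct control used once (20.2% and 10.4% of all genes), which changes the contrast as well as the controls. The interaction in edgeR gave 3 and 0. For sorted cells beside organoids the count of genes higher in every sorted library was 7 in place of 4 with controls only. The Xist block, the averaging and the single use of controls were chosen after seeing the data, and the cause of these changes was not tested. For the Xist block and the averaging the share of all genes called is not given here. Their counts therefore do not show whether the 10 genes stand out from other genes.

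Leaving out 1 library at a time gave 0 to 1 genes called for proximal GA3M2, 0 to 2 for distal GA3M2, 0 to 6 for proximal GS4T, 1 to 4 for distal GS4T, 4 to 6 for IL-1 at 72 h and 0 to 5 for IL-17A at 72 h, and the lone library left in a group of 2 was assumed to vary like the others. Replicate numbers were not shown to pair treated with control libraries. Those of one number deviated together with correlations of -0.19 to 0.30 in the comparisons other than those at 12 h. At 12 h the correlations were 0.62 to 0.64 over only 2 shared numbers. Whether proximal and distal libraries of one number come from the same mouse was not tested. The interactions between segments treated them as separate. With the replicate block the count was 2 for proximal GA3M2, 1 for proximal GA3T, 0 for IL-17A at 72 h, 4 for IL-1 at 72 h and 1 for the time difference of IL-1. Groups of 2 or 3 libraries and few reads for Fosl1 and organoid Fosb limit what these comparisons can show.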

Other observations

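Stress genes outside the AP-1 group were counted from further lists, with log2 fold changes and limma's adjusted p given for those named. In GS4T stromal cells 3 of 12 heat shock genes fell in the proximal colon, the chaperones Hspa1a (-1.55, adjusted p = 0.010), Dnajb1 (-1.46, adjusted p = 0.026) and Hspa1b (-1.43, adjusted p = 0.015). In the distal colon Hspa1a (-1.38, adjusted p = 0.010) and Dnajb1 (-1.03, adjusted p = 0.012) fell and Hspb1 (1.17, adjusted p = 0.0081) rose. Of 10 genes of the integrated stress response 1 rose and 2 fell in the proximal colon and 2 rose and 3 fell in the distal colon. Ppp1r15a, a phosphatase subunit that ends this response, fell in both (-1.86 and -1.51, adjusted p = 0.0052 and 0.0019). Of 14 MAP kinases and partners of serum response factor Elk3 rose in both segments (1.43 and 1.04, adjusted p = 0.0061 and 0.0058) and Map3k8 fell in the proximal colon (-1.02, adjusted p = 0.016).

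In organoids at 72 h 1 of 12 heat shock genes rose and 4 fell with IL-1, among them Hsph1 (-2.59, adjusted p = 0.0031) and Hspd1 (-1.75, adjusted p = 0.0039), and 2 fell with IL-17A, Hsph1 (-2.33, adjusted p = 0.044) and Hspe1 (-1.07, adjusted p = 0.042). Of 10 genes of the integrated stress response 4 rose with IL-1 and 2 with IL-17A, and Ddit4, an inhibitor of mTOR signalling, rose with both (1.27 and 1.18, adjusted p = 0.0030 and 0.034). At 12 h none of these genes was called. Of the MAP kinases and partners Map3k8 (1.38, adjusted p = 0.036) and Mapk3 (1.01, adjusted p = 0.0057) rose with IL-1 at 72 h.

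Fosl1, the gene least like Fos in stromal cells, was most like Nfkbiz (Pearson correlation 0.73), Thbs1 (0.73) and Tnfrsf12a (0.72) over the 24 sorted libraries and Lrpap1 (0.87), Plekhg5 (0.86) and Rfxap (0.85) over the 16 organoid libraries. These values describe libraries that share depth and genotypes, and Fosl1 has few reads in most of them.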
